A study of Mus musculus with 2931 samples.

Results

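Endothelial cells that the authors labelled Proliferative EC were compared with cells that they labelled Early Car4- capillaries, both from the distal lung of 7-day-old mice (postnatal day 7, P7). The cells were taken by a rule on the deposited cell table, namely every cell whose name marks it as P7 with the treatment normal and whose label is one of these. The rule found 365 cells of 2931 in the series, 89 Proliferative EC and 276 Early Car4- capillaries. They came from 1 female mouse, FP7, with 55 and 162 cells, and from 1 male mouse, MP7, with 34 and 114. Most were from the sort gate named CD31. The gate named mesench gave 5 Proliferative EC and 6 Early Car4- cells of FP7, and 1 and 2 of MP7. The CD45 gate gave 2 Early Car4- cells of MP7. Each mouse supplied both groups, so the comparison was made within a mouse, and sex and mouse cannot be told apart. Neither mouse had received hyperoxia, a raised level of oxygen in the inhaled air. The P7 hyperoxia mice, 1 female and 1 male, had 36 and 30 Proliferative EC and 151 and 126 Early Car4- cells. The P1 mice (postnatal day 1, treatment normal), again 1 female and 1 male, had 13 and 9 Proliferative EC and 160 and 120 Early Car4- cells. All were mouse cells sorted by flow cytometry and sequenced in plates, 1 cell a well, with a transposase protocol. Strain, genotype, oxygen level and the number of animals behind each mouse name are not given in the sources used here.

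Dividing cells copy their DNA in S phase and separate it in mitosis. S-phase genes, such as those of the MCM helicase, are switched on by E2F factors, while mitotic genes are held down by the DREAM complex in resting cells and switched on later by B-MYB and FOXM1. These complexes act at CHR elements, often with nearby CCAAT boxes bound by NF-Y. D-type cyclins and their kinases drive the step into S phase, and inhibitors such as p21 (Cdkn1a) hold it back. The lung capillary bed grows by cell division in the first postnatal weeks. Its endothelium holds Car4+ capillary cells, also called aerocytes, and general (Car4-) capillary cells, which are known as the pool from which capillary cells are renewed.

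How the authors assigned the labels is not given in the sources used here. Where labels come from clustering of the same cells, genes that separated the clusters must differ between them, so the p-values below describe the size and steadiness of differences and are no independent test that the groups are distinct. They come from a fit of both labels in the 2 P7 normal and the 2 P7 hyperoxia mice. The spread behind them is therefore estimated over these 4 mice and not from the P7 normal mice alone. Values are summed reads per mouse and label, given as RPM (reads per 1000000 reads of the sum), and a gene was called when its Benjamini-Hochberg adjusted p in edgeR's quasi-likelihood test was under 0.05. The sums held 60712409 and 161045882 reads in FP7 (Proliferative EC, then Early Car4-) and 8951551 and 28669835 in MP7, so values from MP7 rest on fewer reads. Within a mouse the cells of both labels had like depth, with medians of 1046715 and 950650 reads in FP7 and 183457 and 183072.5 in MP7. After each cell was thinned to 50000 reads, the median number of genes with a read was 2917 in Proliferative EC and 2348 in Early Car4- cells of FP7, and 3691 and 3253 in MP7. The part of this difference in the results was not tested. Reads carry no molecular identifiers, so they are not independent molecules.

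The promoters of mitosis genes are shown first, because matches to CHR and CCAAT elements were more frequent in them than in promoters of all genes tested. The letters searched were TTTGAA (CHR), CCAAT, and TTTCCCGC, TTTCGCGC, TTTGCCGC and TTTGGCGC (E2F), on both strands, in the 250 bases before the start of each gene in the RefSeq promoter table (GRCm38.p6). The lines below are the 150 bases before the start of Top2a (chr11:99024190-99024339, minus strand), Ube2c (chr2:164769779-164769928, plus strand), Cdk1 (chr10:69352913-69353062, minus strand) and Cdc20 (chr4:118437344-118437493, minus strand), written 5′ to 3′. They were chosen as the called mitosis genes of highest level whose window holds both a CHR and a CCAAT match, and capitals mark every match to the searched letters.
Top2a: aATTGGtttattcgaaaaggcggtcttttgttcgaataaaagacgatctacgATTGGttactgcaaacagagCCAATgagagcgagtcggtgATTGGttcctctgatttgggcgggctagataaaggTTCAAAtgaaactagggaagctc
Ube2c: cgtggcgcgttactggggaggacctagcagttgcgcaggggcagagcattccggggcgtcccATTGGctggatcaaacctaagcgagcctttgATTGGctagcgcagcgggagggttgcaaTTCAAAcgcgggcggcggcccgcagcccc
Cdk1: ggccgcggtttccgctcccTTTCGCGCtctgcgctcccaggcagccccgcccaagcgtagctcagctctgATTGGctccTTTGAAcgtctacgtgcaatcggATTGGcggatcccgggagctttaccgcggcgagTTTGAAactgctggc
Cdc20: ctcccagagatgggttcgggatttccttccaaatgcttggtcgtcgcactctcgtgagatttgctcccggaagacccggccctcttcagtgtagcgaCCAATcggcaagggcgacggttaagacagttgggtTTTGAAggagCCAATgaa
In these windows the CHR match nearest the start lies 23, 29, 15 and 18 bases before it, and Cdk1 has a further CHR match and an E2F match (TTTCGCGC) upstream.

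Of the 42 mitosis genes, 35 had a promoter in the table, and 34.3% of these held a CHR match, 77.1% a CCAAT match and 31.4% both. Among all 27025 promoters the shares were 16.3%, 34.5% and 5.73%. Among the 10489 promoters of genes tested here they were 10.9%, 36.4% and 4.37%. E2F letters were in 2.86% of the mitosis promoters, in 1.91% of all promoters and in 3.53% of those of genes tested. The replication list, with 28 of 34 promoters found, had the other pattern: 25% held E2F letters and 10.7% a CHR match, while 64.3% held CCAAT. Of the 27 histone and chromatin promoters found among 30, 81.5% held CCAAT and 29.6% a CHR match. Of the 126 genes called higher in Proliferative EC, 106 had a promoter, and 27.4% of those held both CHR and CCAAT. Mitosis genes called and not called, with 25 and 10 promoters found, held a CHR match in 36% and 30%. CCAAT was in 76% and 80% of these promoters, and both elements in 36% and 20%. The 250 bases before the helicase genes Mcm6 (chr1:128359706-128359955, minus strand) and Mcm7 (chr5:138171884-138172133, minus strand) are printed to the same scheme, as the replication genes of highest level with E2F letters.
Mcm6: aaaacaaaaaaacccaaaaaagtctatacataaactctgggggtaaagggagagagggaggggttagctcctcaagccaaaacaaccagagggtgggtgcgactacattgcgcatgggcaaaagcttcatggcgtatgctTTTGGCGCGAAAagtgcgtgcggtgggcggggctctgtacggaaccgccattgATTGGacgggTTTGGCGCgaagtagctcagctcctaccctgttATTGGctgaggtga
Mcm7: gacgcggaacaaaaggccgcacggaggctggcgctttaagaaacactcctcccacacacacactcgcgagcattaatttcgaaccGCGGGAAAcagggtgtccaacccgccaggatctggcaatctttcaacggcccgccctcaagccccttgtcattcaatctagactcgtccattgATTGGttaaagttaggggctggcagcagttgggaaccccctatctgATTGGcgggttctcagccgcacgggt
In the Mcm6 window 3 E2F matches stand in capitals, 2 of them overlapping, and in the Mcm7 window 1. A match is a description of the letters, and no binding was measured.

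Cell cycle genes made up much of what differed between the labels, and nearly all of the called genes were higher in Proliferative EC. Of 13714 genes tested, 128 were called (0.933%), 126 higher in Proliferative EC (0.919%) and 2 lower (0.0146%). Where no other fit is named, a call is one of this edgeR fit, which compares the labels within each mouse, whereas overlap is judged on the values of both mice together. Their values did not overlap between the labels for any of the 128, while over all genes tested 16% were higher in both mice without overlap and 22.5% lower. The 126 had a median log2 change of 3.92, against -0.114 over all genes tested. Of the 128, 56 belong to 6 cell cycle lists (mitosis, DNA replication, cell cycle factors, G1 regulators, histones and chromatin, DNA repair) and 65 to no list. Fits without FP7 called 65 genes and fits without MP7 74, and fits without either hyperoxia mouse called 248 and 280.

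Mitosis genes formed the group with the largest differences, and 30 of 42 were called higher, none lower, with a median log2 change of 6.35. All 42 were fitted higher and 41 did not overlap between the labels. Mki67, whose protein coats chromosomes of cycling cells and is the usual marker of division, was at 668 RPM in FP7 and 496 in MP7 in Proliferative EC, and at 5.33 and 10.5 in Early Car4- cells. Its log2 change was 6.30 (SE 0.43, adjusted p = 0.00213, edgeR). Top2a, the topoisomerase that untangles sister chromatids, was at 906 and 1444 RPM in Proliferative EC against 32.4 and 36.1. Cdk1, the kinase that drives entry into mitosis, was at 1014 and 1063 RPM against 28.0 and 38.1. In each of these genes the lower Proliferative EC value was more than 10 times the higher Early Car4- value. Ube2c, a ubiquitin-conjugating enzyme that serves the anaphase-promoting complex, was at 1076 and 1098 RPM against 3.96 and 1.29, a log2 change of 8.86 (SE 0.535, adjusted p = 0.0018, edgeR). Cdca3, which helps trigger mitotic entry, was at 267 and 383 RPM against 1.25 and 1.05, and had the lowest adjusted p of all genes, 0.000965 (edgeR).

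Spindle and chromosome genes of the list followed the same direction with different backgrounds in Early Car4- cells. Nusap1, a protein that bundles spindle microtubules, was at 348 and 288 RPM against 0.0248 and 0.628. Hmmr, a spindle assembly protein, had 12334 and 672 reads in Proliferative EC, and 0 and 1 read in Early Car4- cells. The pooled ratio of Hmmr was 35400, with a counting interval of 6360 to 1400000 that covers counting error only. Cdc25c, the phosphatase that activates Cdk1, was at 128 and 122.5 RPM against 0.00621 and 0.558. Cenpa, the histone variant of centromeres, was at 896 and 862 RPM against 13.03 and 23.02, and Aurka, a centrosomal kinase, at 352 and 281 against 3.80 and 2.55. These 5 genes were called. Among the 12 mitosis genes not called, Ccnb1, the cyclin partner of Cdk1, was at 280 and 218 RPM against 11.7 and 0.105 (adjusted p = 0.152, edgeR), so that its Early Car4- level differed widely between the mice. Ccnb1 was called in 7 of 14 alternatives, among them DESeq2 (adjusted p = 0.000417), limma (0.00188), no filter on low counts (0.0428) and the fit without FP7 (0.0246). Pttg1, securin, was the member with overlapping values, at 122 and 183 RPM against 112 and 132 (adjusted p = 0.829, edgeR), and a read of it was found in 59.6% of Proliferative EC and 51.1% of Early Car4- cells.

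**Figure D1:**
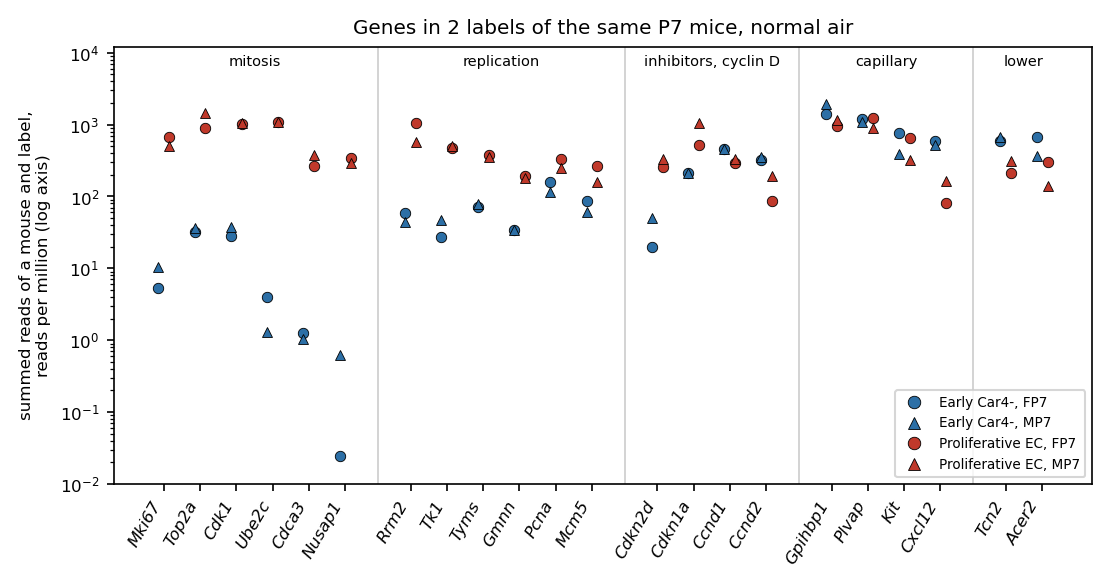
RPM on a log axis for genes of 5 groups, with 1 point per mouse (circle FP7, triangle MP7) and label (blue Early Car4- capillaries, red Proliferative EC). The labels lie far apart for the mitosis genes, closer for replication genes such as Pcna (331 and 247 against 157 and 117), and next to each other for Plvap. Of the other capillary genes shown, Gpihbp1 and Cxcl12 lie lower in Proliferative EC without overlap, and Kit overlaps.

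Replication genes were higher as well, by less. Of 34 genes tested, 9 were called higher, none lower, with a median log2 change of 1.60. All 34 were fitted higher and 30 did not overlap. Rrm2, the regulated subunit of ribonucleotide reductase, was at 1040 and 580 RPM in Proliferative EC against 58.1 and 44.3, a log2 change of 3.97 (SE 0.305, adjusted p = 0.00307, edgeR). Tk1, thymidine kinase, was at 465 and 506 RPM against 27.5 and 46.3. Cdc45, part of the replicative helicase, was at 230 and 171 RPM against 14.7 and 14.3, and Gmnn, geminin, which blocks a second round of licensing, at 193 and 180 against 34.5 and 34.5. Rrm1, Tyms (thymidylate synthase), Uhrf1, Orc6 and the clamp loader subunit Rfc5 were the other members called. No MCM helicase gene was called in this fit, and Mcm5 lay next to the threshold. Mcm5 was at 269 and 161 RPM against 87.8 and 60.1, a log2 change of 1.55 (SE 0.25, adjusted p = 0.0504, edgeR). It was called in 10 of 14 alternatives, DESeq2 (adjusted p = 7.47e-06), limma (0.0131) and RLE scaling (0.0492) among them. Mcm3, Mcm4 and Mcm6 were above within each mouse but overlapped over both mice, with log2 changes of 0.46, 0.39 and 0.67. Pcna, the sliding clamp, was at 331 and 247 RPM against 157 and 117 (log2 change 1.10, SE 0.21, adjusted p = 0.0898, edgeR). Summed over the list, replication genes stood at 6584 and 4791 RPM against 1790 and 1375, and mitosis genes at 17620 and 15550 against 524 and 579. The number of replication genes called was 2 without FP7 and 2 without MP7, 14 without the male hyperoxia mouse, and 24 with DESeq2.

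**Figure D2:**
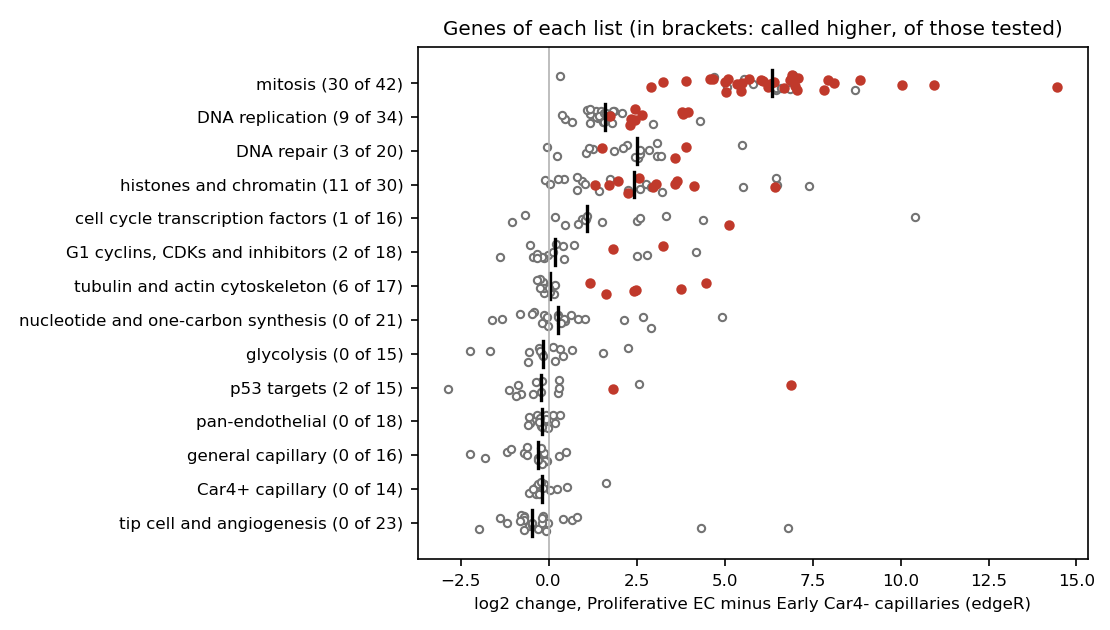
The log2 change of each gene (edgeR, Proliferative EC minus Early Car4- capillaries) by list, red where called and open where not, with a black bar at the list's median. The medians are 6.35 for mitosis and 1.60 for replication, and those of the pan-endothelial and general capillary lists are -0.17 and -0.31. Fitted changes of genes with almost no reads in Early Car4- cells, such as Hmmr, depend on the prior count.

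Among 16 cell cycle transcription factors 1 was called. Foxm1, the factor that activates mitotic genes, was at 193 and 62.9 RPM in Proliferative EC and 4.38 and 2.44 in Early Car4- cells, a log2 change of 5.11 (SE 0.472, adjusted p = 0.00491, edgeR), and was not called without FP7 (adjusted p = 0.125, edgeR). Mybl2, which encodes B-MYB, was at 89.5 and 50.9 RPM against 1.76 and 6.21 (adjusted p = 0.141, edgeR). The repressors E2f7 and E2f8 were at 91.2 and 57.6 RPM against 4.95 and 11.02, and at 107 and 56.8 against 0.0186 and 0.174, and neither was called. E2f1, an activator of S-phase genes, was at 96.5 and 27.6 RPM against 33.7 and 21.8, above within each mouse but overlapping over both (adjusted p = 0.881, edgeR). Myc was at 57.1 and 4.36 RPM against 30.3 and 23.5, and Mycn at 6.33 and 7.60 against 4.80 and 5.44. No factor of the list was called without FP7, 1 without MP7, 3 and 4 without a hyperoxia mouse, and 7 with DESeq2.

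Of 18 G1 regulators tested, 2 were called, and both are inhibitors of cyclin-dependent kinases. Cdkn2d, p19-INK4d, was at 257 and 332 RPM in Proliferative EC and 19.7 and 50.2 in Early Car4- cells, a log2 change of 3.25 (SE 0.368, adjusted p = 0.0127, edgeR). Without FP7 its adjusted p was 0.08 (edgeR). Cdkn1a, which encodes p21 and is a target of p53, was at 517 and 1052 RPM against 215 and 211, a log2 change of 1.82 (SE 0.289, adjusted p = 0.0469, edgeR). It had a read in 71.9% of Proliferative EC and 40.2% of Early Car4- cells. The call on Cdkn1a was lost without MP7 (log2 change 1.33, adjusted p = 0.372), with CD31-gate cells alone (adjusted p = 0.0583) and with the P1 mice added (adjusted p = 0.64, all edgeR). Single cells held up to 8.83% of the Cdkn1a reads of FP7 Proliferative EC and 22.4% of those of MP7, and up to 20.4% and 30.4% of those of the Early Car4- cells. The median over cells was 215 and 598 RPM in Proliferative EC and 0 and 0 in Early Car4- cells. Of 15 p53 targets, the other member called was Gtse1, a spindle-associated regulator of p53, at 80.5 and 87.0 RPM against 2.19 and 0.0698. Mdm2, the ubiquitin ligase of p53, was at 101 and 33.5 RPM against 77.5 and 31.8, and the median log2 change of the p53 list was -0.21. Of the G1 regulators, 1 was called without FP7, 1 without MP7, 4 and 5 without a hyperoxia mouse, and 5 with DESeq2.

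Among the D-type cyclins, Ccnd1 and Ccnd2 stood in the other direction without passing the test. Ccnd1 was at 290 and 334 RPM in Proliferative EC and 461 and 463 in Early Car4- cells (log2 change -0.54, SE 0.163, adjusted p = 0.335, edgeR). Ccnd2 was at 85.1 and 191 RPM against 322 and 352 (log2 change -1.37, SE 0.365, adjusted p = 0.253, edgeR), and had a read in 40.4% of Proliferative EC and 76.1% of Early Car4- cells. For both genes the Proliferative EC values lay below the Early Car4- values in both mice. Ccnd2 passed the threshold in 5 of 14 alternatives, among them DESeq2 (adjusted p = 0.0012), thinned cells (adjusted p = 0.000557, edgeR) and limma (adjusted p = 0.0181). The third D-type cyclin, Ccnd3, overlapped, at 309 and 340.5 RPM against 265.5 and 491.5. Cyclin E, which follows cyclin D at the start of S phase, was not called: Ccne2 was at 130 and 47.7 RPM against 11.9 and 11.6. The inhibitor Cdkn1b (p27) was at 24.1 and 44.0 RPM against 15.5 and 40.6, above within each mouse (adjusted p = 0.865, edgeR), and Cdkn1c (p57) at 42.6 and 35.5 against 44.3 and 26.5 (adjusted p = 0.999, edgeR).

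Histone and chromatin genes were higher in part, with 11 of 30 called, none lower, and a median log2 change of 2.42. H2afx, whose phosphorylated product marks DNA breaks, was at 286 and 383 RPM against 11.6 and 31.6. Hmgb2, a chromatin protein of dividing cells, was at 700 and 848 RPM against 49.1 and 80.9, and had a read in every Proliferative EC cell (100%) and in 53.3% of Early Car4- cells. Hist1h4d, a replication-dependent histone H4 gene, was at 260 and 1061 RPM against 40.3 and 102, and Hist1h2ae at 73.5 and 259 against 2.51 and 0.872. Both histone genes were higher in MP7 than in FP7 among Proliferative EC. Histone H1 and H4 genes occur in near-identical copies, so the split of reads between copies is uncertain, and most replication-dependent histone transcripts carry no poly(A) tail. Dnmt1, the methyltransferase that copies DNA methylation, was called (243 and 187 RPM against 81.6 and 54.0), and H3f3a, a replication-independent H3 gene, overlapped (131 and 165 against 132.5 and 159). The count for the list was 4 without FP7 and 7 without MP7, 16 and 18 without a hyperoxia mouse, and 22 with DESeq2.

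Of 20 DNA repair genes, 3 were called higher, none lower, with a median log2 change of 2.51 and 18 without overlap. Among them Tipin, which stabilises stalled replication forks, was at 433 and 284.5 RPM against 141 and 111. The count was 1 without FP7 and 0 without MP7, where none of the repair genes stayed under the threshold, and 14 with DESeq2.

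The tubulin and actin list split by kind. Of 17 genes, 6 were called higher, and all are tubulins or the tubulin-binding Stmn1, while the list's median log2 change was 0.04. Tubb6 was at 872 and 892 RPM in Proliferative EC against 59.7 and 73.7, a log2 change of 3.76 (SE 0.235, adjusted p = 0.0018, edgeR). Tuba1b was at 1513 and 1295 RPM against 272 and 262, Tubb4b at 851 and 954 against 136 and 195.5, and Tubb5 at 4184 and 4919 against 1757 and 2406. Stmn1, stathmin, which destabilises microtubules, was at 1000 and 1122 RPM against 351 and 351. Not every tubulin moved this way: Tuba1a was at 1436 and 1291 RPM against 1769 and 1747 and Tubb2a at 516 and 492 against 547 and 666, and neither was called. Actb, cytoplasmic actin, was at 6679 and 14760 RPM against 5963 and 13710 (adjusted p = 0.699, edgeR). Tubulin genes are close in sequence, so reads could be split between copies. The count was 3 without FP7 and 3 without MP7.

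Of 21 genes of nucleotide and one-carbon synthesis none was called (3 with DESeq2), with a median log2 change of 0.27. Nearest the threshold were Psat1, a serine synthesis enzyme, at 107 and 81.3 RPM against 18.6 and 11.7 (adjusted p = 0.0511, edgeR), and Mthfd2, a mitochondrial folate enzyme, at 69.1 and 67.4 against 9.05 and 9.56 (adjusted p = 0.074, edgeR). In other edgeR fits 2 genes of this list were called in thinned cells, with no filter, with no replicate block, with the P7 normal mice alone and without either hyperoxia mouse, and 1 with CD31-gate cells. Of 15 glycolysis genes none was called (2 with DESeq2, and 1 in thinned cells, with no filter, with the P7 normal mice alone and without either hyperoxia mouse), with a median log2 change of -0.17. Aldoa, aldolase, was at 133 and 135 RPM in Proliferative EC against 369 and 506 (log2 change -1.66, SE 0.301, adjusted p = 0.0783, edgeR), and Slc2a1, the glucose transporter GLUT1, at 23.9 and 17.5 against 8.56 and 2.20 (adjusted p = 0.467, edgeR).

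Outside the lists, genes were named by size of change among those called higher. Sapcd2, a protein that orients the spindle, had 2719 and 1069 reads in Proliferative EC and 0 reads in Early Car4- cells of both mice, at least 3440-fold higher when the 2 sums of Early Car4- cells are together set to 3 reads. Arhgef39 was at 95.4 and 96.1 RPM against 0.199 and 0. Mxd3, a MAX-binding repressor of the MYC network, was at 195 and 197 RPM against 0.0497 and 0.488. Kif15, a spindle kinesin, was at 243 and 137 RPM against 0.0745 and 1.05, and Knl1, a kinetochore scaffold, at 285 and 206 against 6.11 and 1.60. Cep55, which acts in the final cut between daughter cells, was at 153 and 119 RPM against 0.832 and 1.99, and Dlgap5, a spindle protein, at 87.2 and 79.5 against 3.42 and 0.523. Lockd, a noncoding RNA gene next to Cdkn1b, was at 91.9 and 143 RPM against 1.98 and 0.453. Nav2, known from neuron guidance, was at 61.6 and 63.6 RPM against 0.0807 and 0.837.

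Other called genes were picked after their values were seen. They include kinetochore and centromere genes: Spc24 was at 391 and 331 RPM against 15.1 and 8.58, and Hjurp, the chaperone of Cenpa, at 438 and 432 against 49.2 and 52.98. Cks2 and Cks1b, small subunits of cyclin-dependent kinases, were at 123 and 162 RPM against 5.24 and 9.24, and at 733 and 479 against 47.1 and 53.5. Condensin genes Ncapd2 (280 and 232 RPM against 30.8 and 28.3) and Ncapd3 (175 and 185 against 15.6 and 17.1) were called, as was Pclaf, a PCNA-binding factor (458.5 and 326 against 33.7 and 26.7). Some called genes are not known mainly for division. Calm2, a calmodulin gene, was at 2917 and 2575 RPM against 1261 and 993, Arl6ip1, a shaper of the endoplasmic reticulum, at 1462 and 1161 against 270 and 233, and Alg8, an enzyme of N-glycosylation, at 105 and 56.8 against 8.79 and 5.90.

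The 2 genes called lower were Tcn2 and Acer2. Tcn2, transcobalamin, which carries vitamin B12 into cells, was at 210 and 315 RPM in Proliferative EC and 589 and 673 in Early Car4- cells, a log2 change of -1.26 (SE 0.19, adjusted p = 0.0385, edgeR). Acer2, a Golgi ceramidase, was at 300 and 142 RPM against 665 and 366, a log2 change of -1.23 (SE 0.196, adjusted p = 0.0483, edgeR). Within each mouse the Proliferative EC value of both genes was the lower one. Neither call held without FP7 (adjusted p = 0.415 and 0.287), without MP7 (0.224 and 0.533), with CD31-gate cells alone (0.0605 and 0.0675) or without the replicate block (0.1 and 0.583, all edgeR). With DESeq2 277 genes were lower, and at an unadjusted p under 0.05 edgeR had 509 lower and 703 higher.

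None of 16 general capillary markers was called (4 with DESeq2, 4 in thinned cells, 3 without either hyperoxia mouse and 2 with the P7 normal mice alone), and 14 were fitted lower, with a median log2 change of -0.31 against -0.114 over all genes. Of all 13714 genes tested, 7618 were fitted lower. With limma, and with no filter, 1 marker of this list was called. Summed over the list the level was 9742 and 9816 RPM in Proliferative EC and 12520 and 13520 in Early Car4- cells. Other labels were read only with at least 8 cells in both P7 normal mice, which left out Late Car4- capillaries among others. In those read, the level was 8889 and 8929 RPM (Venous EC) and 6075 and 5975 (Car4+ capillaries). Plvap, a diaphragm protein of capillary endothelium, was at 1217 and 906 RPM against 1197 and 1100, and Kit, the receptor of stem cell factor, at 653 and 326 against 774 and 387. Gpihbp1, which holds lipoprotein lipase on the capillary wall, was at 951 and 1172 RPM against 1424 and 1945, below in both mice (log2 change -0.63, SE 0.141, adjusted p = 0.152, edgeR), and was called with DESeq2 (adjusted p = 0.00611) and in thinned cells (adjusted p = 0.0197, edgeR). A read of Gpihbp1 was found in 89.9% of thinned Proliferative EC, 97.1% of Early Car4- cells and 34.8% of Car4+ capillaries. Cxcl12, the ligand of Cxcr4, was at 80.3 and 162 RPM against 593 and 513 (log2 change -2.25, SE 0.482, adjusted p = 0.141, edgeR). In MP7 Early Car4- cells 1 cell held 59.2% of the Cxcl12 reads. Sema3c, a secreted semaphorin, was at 262 and 406 RPM against 676 and 722 (adjusted p = 0.141, edgeR). Aplnr, the apelin receptor, was at 423 and 219 RPM against 778.5 and 329 (adjusted p = 0.477, edgeR).

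Pan-endothelial genes gave 0 calls of 18 (1 with DESeq2 and 2 with edgeR in thinned cells), with 16850 and 19650 RPM in sum against 19730 and 22140. Pecam1, which encodes the sort marker CD31, was at 1509 and 690 RPM in Proliferative EC and 1762 and 968 in Early Car4- cells, Cdh5, VE-cadherin, at 332 and 682 against 559 and 595, and the lung endothelial factor Foxf1 at 970.5 and 1083 against 904 and 1225. Car4+ capillary markers were low in both labels: in sum 2483 and 4412 RPM in Proliferative EC and 3079 and 4226 in Early Car4- cells, against 28450 and 36890 in the cells labelled Car4+ capillaries of the same mice. Car4, carbonic anhydrase 4, was at 74.2 and 488 RPM, 149 and 413, and 5092 and 9358 in these labels, with a read in 25.8%, 26.7% and 98.5% of thinned cells. Ednrb, the endothelin B receptor, was at 58.2 and 224 RPM in Proliferative EC and 95.3 and 213 in Early Car4- cells, and Apln, apelin, at 67.9 and 40.1 against 79.1 and 77.4. Venous markers summed to 847 and 661 RPM in Proliferative EC, 720 and 885 in Early Car4- cells and 12450 and 9015 in the cells labelled Venous EC. Lymphatic markers summed to 1208 and 1042 RPM against 965 and 917 in Early Car4- cells, most of it Lyve1, a hyaluronan receptor, at 1117 and 800.5 against 886 and 734.5, and none of the 3 that could be tested was called. The lymphatic factor Prox1 was at 0.0329 and 0 RPM in Proliferative EC and 0.00621 and 0.0349 in Early Car4- cells. Arterial markers summed to 1284 and 1734 RPM against 2015 and 2473 in Early Car4- cells, and none of 11 was called with edgeR (1 with DESeq2). In Venous EC the arterial list summed to 9369 and 11730 RPM, so in these mice it does not mark arterial cells alone. On the Car4+ and venous lists Proliferative EC lay beside Early Car4- cells and far below the label each list marks. On the general capillary list they lay at 9742 and 9816 RPM, between Early Car4- cells (12520 and 13520) and Venous EC (8889 and 8929).

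**Figure D3:**
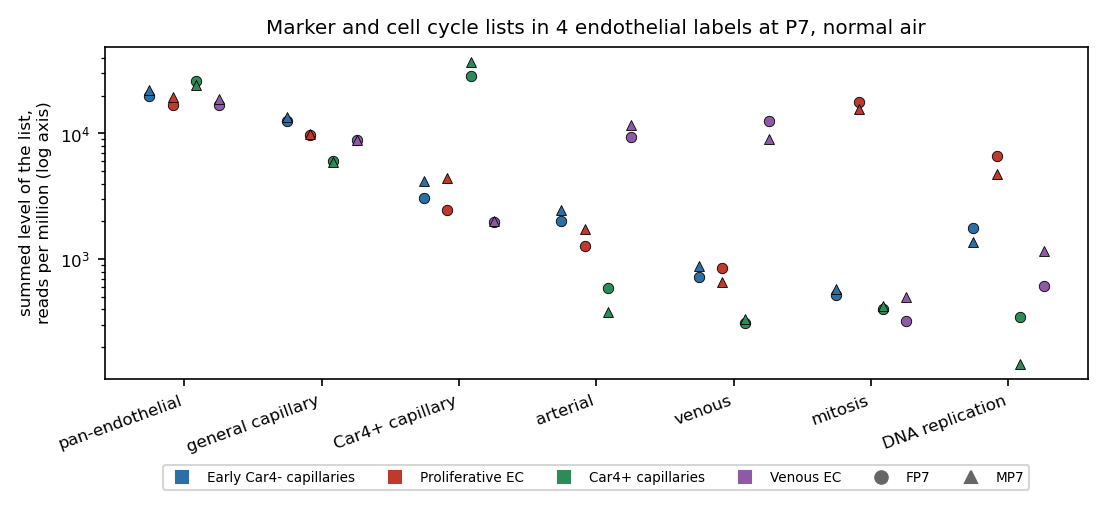
Summed RPM (log axis) of 5 marker lists and 2 cell cycle lists in 4 labels of the P7 normal mice, with 1 point per mouse. Proliferative EC lie beside Early Car4- capillaries for the Car4+ and venous lists, and between them and Venous EC for the general capillary list. For mitosis they lie apart from the 3 other labels shown, at 17620 and 15550 against 324 to 579.

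Cdkn1a had a different order across these labels. It was at 987 and 1004 RPM in Car4+ capillaries, 517 and 1052 in Proliferative EC, 325 and 167 in Venous EC and 215 and 211 in Early Car4- cells. The Car4+ and Proliferative EC ranges overlapped, as did those of Venous EC and Early Car4- cells. Tip cell and angiogenesis genes gave 0 calls of 23 with edgeR (1 with DESeq2), with a median log2 change of -0.47 and 7 of the 23 below in both mice without overlap (22.5% of all genes tested were so), among them Angpt2 (21.3 and 14.3 RPM against 36.9 and 43.8).

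Markers of other cell types were low and uneven. Immune markers summed to 6.47 and 5.59 RPM in Proliferative EC and 12.4 and 39.1 in Early Car4- cells, with Itgam and S100a8 at 0 in all 4 sums. Epithelial markers summed to 54.7 and 88.7 RPM against 41.9 and 93.6. Mesenchymal markers summed to 13.3 and 406 RPM in Proliferative EC and 24.4 and 30.4 in Early Car4- cells. In MP7 Proliferative EC 1 cell held 72.3% of these reads, over 8 of the list's genes, and without it the sum was 125 RPM. Erythroid and platelet markers summed to 0.0165 and 28.7 RPM against 16.2 and 115. None of these lists had a called member, and with DESeq2 1 immune, 3 epithelial, 0 mesenchymal and 2 erythroid and platelet members were called. With cells that had a read in 5 or more mesenchymal markers left out of every sum, among them 2 Proliferative EC of the P7 normal mice, 143 genes were called, 140 higher and 3 lower. That check was added after seeing the data. Genes induced by dissociation gave 0 calls of 15 with edgeR (1 with DESeq2), with Fos at 484 and 1341 RPM against 390 and 1363.

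Cells of both labels varied widely in how many cell cycle genes they held. With each cell thinned to 50000 reads, which left out 3 Early Car4- cells of MP7, Proliferative EC had reads of a median of 26 mitosis genes of 42 in FP7 (range 6 to 41) and 33 in MP7 (9 to 40). Early Car4- cells had medians of 2 (0 to 17) and 3 (0 to 22). For the 34 replication genes the medians were 13 (0 to 32) and 19.5 (2 to 29) in Proliferative EC, and 3 (0 to 28) and 4 (0 to 32) in Early Car4- cells. The highest replication counts of the labels were thus close, while the mitosis counts lay further apart. In FP7 15 of 55 and in MP7 7 of 34 Proliferative EC had no more mitosis genes than the highest Early Car4- cell of their mouse, and 10 of 162 and 5 of 111 Early Car4- cells had at least as many as the lowest Proliferative EC.

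Counting 10 or more genes as many, a cutoff chosen after the values were seen, 30 of 55 and 27 of 34 Proliferative EC had many replication genes, and each of these cells also had many mitosis genes. Another 19 and 6 had many mitosis genes alone, and 6 and 1 had neither. Among Early Car4- cells 22 of 162 (13.6%) and 23 of 111 (20.7%) had many replication genes. Of these, 19 and 20 had fewer than 10 mitosis genes, and 3 and 3 had many of both. No Proliferative EC cell had many replication genes with few mitosis genes. With this cutoff, cells with many replication and few mitosis genes stood under the Early Car4- label and not under Proliferative EC. Between 4 and 14 cells a label and mouse lay within 2 genes of the replication cutoff. In thinned cells of FP7 and MP7, 8 and 3 Proliferative EC had no Mki67 read and 5 and 8 Early Car4- cells had one. For Top2a, 8 and 3 Proliferative EC had no read and 17 and 14 Early Car4- cells had one.

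**Figure D4:**
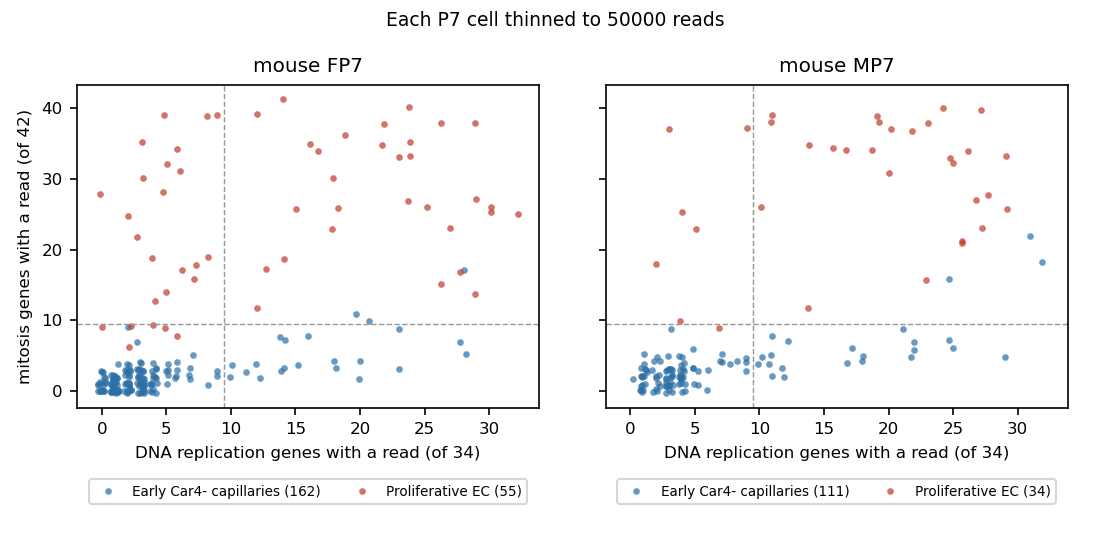
Each point is 1 cell thinned to 50000 reads, placed by the number of DNA replication genes (of 34) and mitosis genes (of 42) with a read, with small random offsets, 1 panel per mouse. Dashed lines stand at the cutoff of 10 genes, and the lower right field holds 19 Early Car4- cells in FP7 and 20 in MP7 and no Proliferative EC.

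Proliferative EC were a like share of the cells from the CD31 gate in both mice, 50 of 320 (15.6%, exact 95% interval 11.8 to 20.1) in FP7 and 33 of 200 (16.5%, 11.6 to 22.4) in MP7. Early Car4- cells were 48.8% and 55.0% of them. The sort sets these shares, and the intervals cover counting error only. With cells of the CD31 gate alone, 144 genes were called, 142 of them higher. The names of these cells carry 1 shared code within each P7 normal mouse, for both labels.

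The same labels in the P7 hyperoxia mice and in the P1 mice gave like directions. Of the 126 genes called higher, 125 were higher in Proliferative EC in both P7 hyperoxia mice and 124 in both P1 mice, where 22.8% and 16.8% of all genes tested were higher in both. The hyperoxia mice share the fit, and so the estimate of spread, with the P7 normal mice, while the P1 mice were outside it. The cells of all these mice carry labels from the same authors. If these genes separated the labels, like directions follow from the labelling and are no independent check. Top2a was at 928 and 1914 RPM against 43.6 and 36.5 under hyperoxia, and at 1632 and 1448 against 5.36 and 4.08 at P1. Mki67 was at 776 and 866 RPM against 15.6 and 12.99 under hyperoxia, and at 1416 and 792 against 0.787 and 7.25 at P1. Tcn2 and Acer2 were lower in Proliferative EC in both mice at each of these, as were 33.9% and 39.9% of all genes tested.

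A test of whether the difference between the labels itself differed between normal air and hyperoxia called 0 of 13714 genes with edgeR, and 446 had an unadjusted p under 0.05. Among the 42 named genes that were called, Cep55 (unadjusted p = 0.000865) and Cdkn1a had the lowest p-values of this test. Under hyperoxia Cdkn1a was at 3356 and 2800 RPM in Proliferative EC and 2344 and 3409 in Early Car4- cells, so that the order of the labels differed between those mice. Its label difference was 1.68 larger on the log2 scale in normal air, with an unadjusted p of 0.00417 and an adjusted p of 1 (edgeR). At P1 it was at 1513 and 851 RPM against 339 and 1323, again with opposite orders in the 2 mice. Ccnd1 was at 529 and 436 RPM against 1315 and 1124 under hyperoxia, and at 524 and 378 against 318 and 467 at P1. Ccnd2 was at 279 and 135 RPM against 932 and 1096 under hyperoxia, and at 181 and 340 against 227 and 265.5 at P1. Ccnd1 and Ccnd2 were thus lower in Proliferative EC in all 4 P7 mice, with mixed order at P1.

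**Figure D5:**
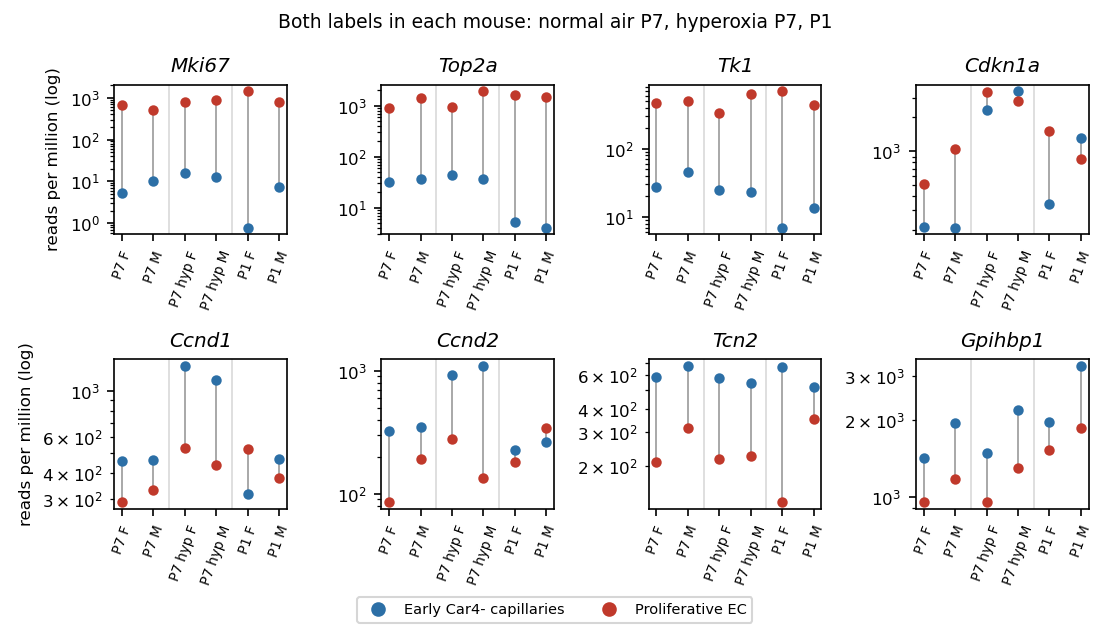
RPM (log axis) of 8 genes in Early Car4- capillaries (blue) and Proliferative EC (red) of 6 mice, joined within a mouse: P7 normal air, P7 hyperoxia (hyp) and P1, female (F) and male (M). Mki67, Top2a and Tk1 are higher in Proliferative EC in every mouse, Tcn2 and Gpihbp1 lower, and the order for Cdkn1a is mixed under hyperoxia and at P1.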

How the data were processed

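The authors deposited whole-number read counts per gene and cell, and a table with 1 subtype label per cell. Per the submitters' processing notes, STAR 2.5.2b and HTSeq 0.10 were used, and the only build named there is GRCh38, a human build, although the samples are mouse. The mouse build and annotation are not given in the sources used here, and neither is the use of strand. The deposited counts hold no molecular identifiers, no mitochondrial or ribosomal protein gene symbols and 18072 gene rows, 202 of them without a read in the 1633 cells of P1 and P7 mice read here. The 1298 columns of other ages were not used here.

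Counts were summed per mouse and label and fitted with edgeR 4.0.16 (R 4.3.3): TMM, filterByExpr, quasi-likelihood F test, mouse as a block, 8 sums of 4 P7 mice, 2 residual degrees of freedom (prior 4.873). Pairing follows from the labels, since both sums of a pair come from the same named mouse. All genes were adjusted together by Benjamini-Hochberg. The members and gene lists were chosen with earlier results of these data known. Named genes were, per list, up to 5 called members per direction of largest change (at least 50 RPM and a read in 25% of cells), up to 10 outside the lists, and 25 always named, such as Mki67, Cdkn1a and Gpihbp1. Other list members are named as examples, after their values were seen. Some genes that the rule names are not reported here. Alternatives were DESeq2 1.42.0, limma 3.58.1 on log2 of mean RPM + 1, RLE scaling, no filter, CD31-gate cells, thinned cells, no block, other sets of mice and a 100-base promoter window. The edgeR fit, and no other step, was tested on simulated sums with known changes, whose spread was set below that of the data. Exact intervals are Clopper-Pearson at 95%.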

Additional observations from a re-analysis of the deposited data

How the results depend on the processing

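The number of genes called moved most with the model. Against 128 called (126 higher, 2 lower), DESeq2 called 815 (538 and 277), thinned cells 438 (372 and 66), limma 276 (246 and 30), no filter 207 (197 and 10), the P7 normal mice alone 217 (206 and 11) and the fit with P1 mice 63 (63 and 0). Leaving out each mouse gave 65 to 280 called, 65 to 258 higher and 0 to 22 lower. RLE scaling left 1 lower gene. Both labels of a pair come from 1 mouse, and with no replicate block 143 genes were called, 1 of them lower. The direction of the 42 named called genes held in all 14 alternatives, and 15 of them stayed called in each. Of the other calls, 24 were lost with the P1 mice added, 15 without FP7, 14 without MP7 and 5 with CD31-gate cells. In 100-base windows, against 250 bases, CHR with CCAAT was in 17.1% of mitosis promoters (31.4%), 0% of replication promoters (7.14%) and 0.925% of those of genes tested (4.37%), and E2F letters in 0% (2.86%), 10.7% (25%) and 1.55% (3.53%). The cause of these shifts was not tested. MP7 sums rest on the fewest reads, which limits genes of low level.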
